A study of Mus musculus with 2 samples.

Results

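The transcripts of glucose catabolism were compared between mouse macrophages without PAC1 and those from wild-type littermates, both after lipopolysaccharide (LPS). The set held 37 genes, chosen by name for their place in these pathways, with earlier results of these data known. They were 18 genes of glycolysis, the glycolytic regulator gene Hif1a, 4 genes of the pentose phosphate pathway, 12 genes of pyruvate dehydrogenase and the tricarboxylic acid (TCA) cycle, the malic enzyme gene Me1 and the itaconate-forming enzyme gene Acod1. For 33 of the 37 a probe set of their own was annotated, out of 8221 genes in all. Hk3, Gpi1, Eno1 and G6pdx had none and were not analysed here.

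The Pac1-/- cells lacked PAC1, the nuclear MAP kinase phosphatase encoded by Dusp2, and the Pac1+/+ cells came from age-matched littermates. In both genotypes macrophages were drawn to the peritoneum by 2 ml of 3% thioglycollate given 4 days earlier, kept by adherence for 2 hours and then exposed to LPS at 100 ng/ml for 6 hours. There was 1 Affymetrix array per genotype, 2 in all. The sources used here do not state the strain, age, sex and number of the mice or how the allele was made. Unstimulated cells were not analysed here, so each value is a level after LPS, not an induction. With 1 array per group, no difference below has a replicate check and no p-value can be given.

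Glycolysis splits glucose into pyruvate in the cytosol, and lactate dehydrogenase then regenerates the NAD+ it needs. The pentose phosphate pathway branches off at glucose 6-phosphate, and its oxidative arm yields NADPH, which macrophages spend on the oxidative burst and on antioxidant defence. Pyruvate dehydrogenase feeds the TCA cycle in mitochondria. LPS-activated mouse macrophages are known to rely strongly on glycolysis, partly through the transcription factor HIF-1α, and to divert the cycle intermediate aconitate into itaconate through ACOD1.

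Signals are MAS5 intensities in arbitrary units, and each log2 ratio is knockout over wild type, so a positive value means a higher signal in the knockout. Levels of different genes cannot be set against each other, because each probe set has its own response. A floor was set at the median of all signals (36.4), and genes with a signal above it on 1 or both arrays are called eligible. Where 1 signal lay below the floor, the ratio sets the brighter signal against the floor and gives a lower bound. Of the 33 genes, 27 were above the floor on both arrays, 3 on 1 array and 3 on neither.

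After LPS, most of the 27 members measured on both arrays had similar signals in the genotypes, and 1 differed by 1.5-fold or more. Pgd, which encodes 6-phosphogluconate dehydrogenase of the oxidative pentose phosphate arm, was 1.97-fold higher in the knockout by the probe set used, though not by its dimmer second one. Among the 30 eligible members, of which Aldoc, Ldhb and Pfkm have only lower bounds, 1 was 1.5-fold or more higher and 0 were shown to be 1.5-fold or more lower, while over all 5121 eligible genes 6.35% were that much higher and 5.72% that much lower. None of the 30 was shown to be 2-fold apart, against 2.30% of all eligible genes. Their median log2 ratio was 0.04, beside 0.02 over all eligible genes, with 17 members above 0 and 13 below. Of all 5121 eligible genes 2675 were above 0 and 2446 below. When the arrays were given equal medians in place of equal trimmed means, the median log2 ratio over all eligible genes shifted by -0.11, 9 members were above 0 and 21 below, and 2 members (Pfkfb3 and Ldhb) were 1.5-fold or more lower in place of 0. In that setting 4.18% of all eligible genes were 1.5-fold or more higher and 8.89% lower. Within 1.25-fold lay 23 of the 27 members measured on both arrays (85.2%), and 69.7% of all genes so measured. The 4 outside it were Pgd, Pfkfb3, Pfkp and Pgam1. These shares over all genes are not matched for signal, and bright genes had narrower ratios. A mean signal of 16 times the floor or more was found for 12 of the 30 eligible members and 820 of the 5121 eligible genes. Of those 820 genes 0.366% were 1.5-fold or more higher, against 9.78% of genes under 4 times the floor.

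**Figure D1:**
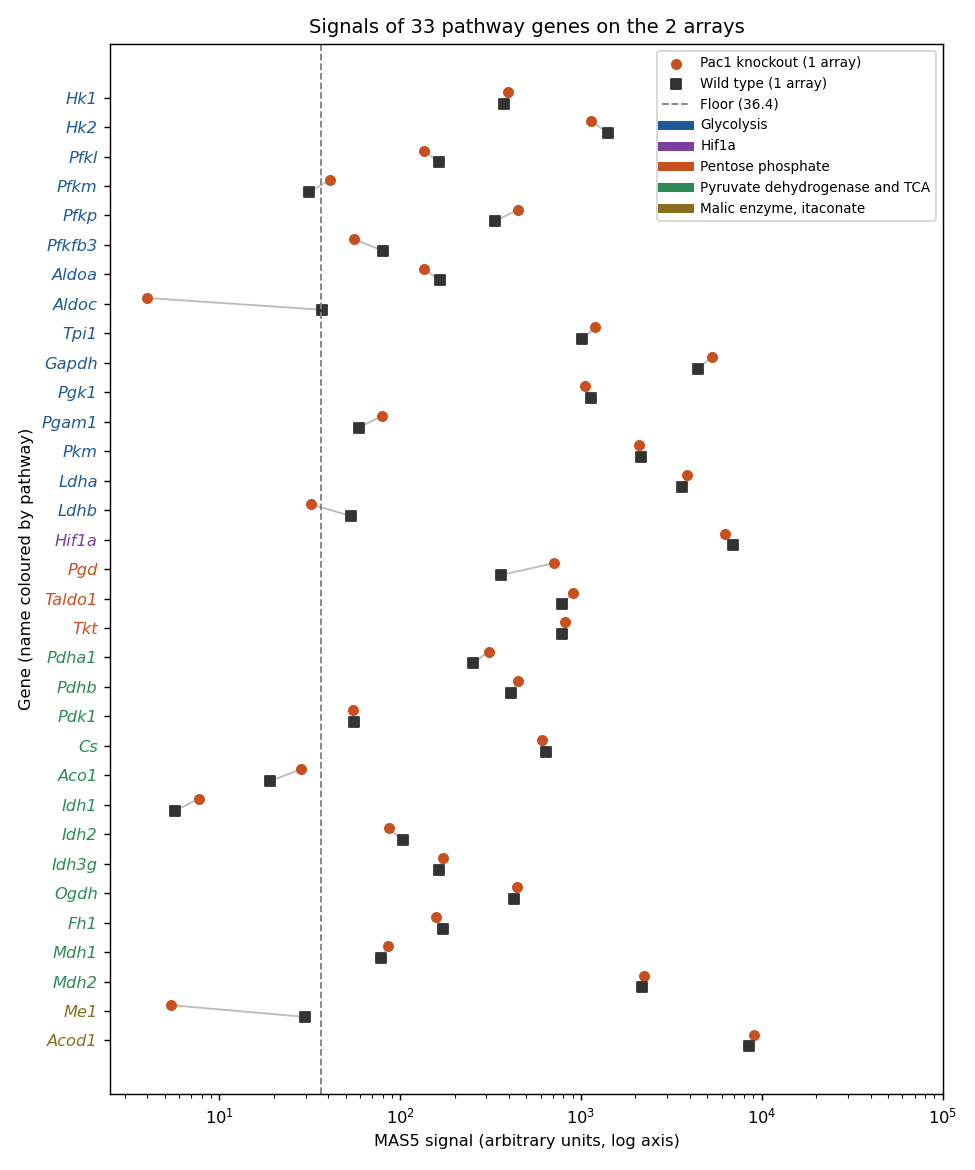
MAS5 signals (arbitrary units, log axis) of the 33 genes with a probe set, with the knockout array as circles, the wild-type array as squares and the floor of 36.4 as a dashed line. The paired points nearly coincide for most genes, Pgd stands apart at 711.7 in knockout cells and 362.0 in wild-type cells, and the wide gaps of Aldoc and Me1 involve knockout signals far under the floor.

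The sequences around the start sites of 4 genes named below are shown to make the members concrete, and nothing was tested about their part in the signals. Pgd was chosen as the gene with the highest ratio and Pfkfb3 as the one with the lowest ratio measured on both arrays. Pgk1 is a classical HIF-1 target, and Acod1 is a marker of LPS activation. Each sequence runs 5′ to 3′ from 250 bases before to 50 bases after the first start site listed (RefSeq, GRCm38.p6), with the HIF-1 core letters ACGTG or GCGTG on either strand in capitals.
Pgd: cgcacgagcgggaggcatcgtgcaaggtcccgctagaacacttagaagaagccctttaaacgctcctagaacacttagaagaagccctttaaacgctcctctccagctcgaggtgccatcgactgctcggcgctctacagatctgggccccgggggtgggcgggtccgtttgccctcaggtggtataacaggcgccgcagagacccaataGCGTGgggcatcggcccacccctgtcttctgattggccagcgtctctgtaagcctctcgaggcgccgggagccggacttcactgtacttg
Pfkfb3: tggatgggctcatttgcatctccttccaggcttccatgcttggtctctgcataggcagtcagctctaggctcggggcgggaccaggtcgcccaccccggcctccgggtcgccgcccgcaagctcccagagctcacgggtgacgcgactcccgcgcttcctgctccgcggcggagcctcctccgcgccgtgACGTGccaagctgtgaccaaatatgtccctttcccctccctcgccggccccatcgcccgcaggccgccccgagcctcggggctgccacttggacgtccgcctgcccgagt
Pgk1: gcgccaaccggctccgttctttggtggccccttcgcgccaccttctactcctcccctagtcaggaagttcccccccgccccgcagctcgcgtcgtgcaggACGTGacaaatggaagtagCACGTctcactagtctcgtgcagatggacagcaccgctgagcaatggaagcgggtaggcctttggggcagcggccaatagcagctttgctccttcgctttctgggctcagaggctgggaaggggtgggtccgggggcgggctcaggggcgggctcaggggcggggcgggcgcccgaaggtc
Acod1: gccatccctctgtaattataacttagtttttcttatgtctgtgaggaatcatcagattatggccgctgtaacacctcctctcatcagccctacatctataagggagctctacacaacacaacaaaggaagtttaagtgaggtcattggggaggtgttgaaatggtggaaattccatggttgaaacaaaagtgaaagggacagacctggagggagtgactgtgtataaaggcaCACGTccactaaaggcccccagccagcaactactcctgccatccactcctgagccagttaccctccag

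The windows lie at chr4:149166656-149166955, minus strand, for Pgd, at chr2:11553880-11554179, minus strand, for Pfkfb3, at chrX:106186850-106187149, plus strand, for Pgk1, and at chr14:103046762-103047061, plus strand, for Acod1. Pgk1 held 2 copies of ACGTG, Pfkfb3 and Acod1 held 1 each, and Pgd held 0 copies of ACGTG and 1 of GCGTG. All 33 genes matched a RefSeq start. ACGTG occurred in the first listed window of 14 of them (42.4%), beside 27.0% of the 4160 eligible genes with a window and 19.6% of all 32851 windows. GCGTG occurred in 57.6% of the members and 51.9% of eligible genes. The antioxidant response element letters TGACNNNGC, searched on both strands and not capitalised separately because none of the 4 windows held them, occurred in 4 of 33 members (12.1%) and 15.0% of eligible genes. The median G+C content was 61.0% in the members' windows and 60.7% in those of eligible genes. These matches describe letters in the windows and are not evidence of binding.

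The first step of glycolysis, phosphorylation of glucose by hexokinase, was represented by 2 isozyme genes. Hk2, the inducible isozyme, had a signal of 1140 in knockout cells and 1410 in wild-type cells, 1.24-fold lower (log2 ratio -0.31). The ubiquitous isozyme gene Hk1 was at 393.2 in knockout cells and 377.9 in wild-type cells (0.06). Hk2 was therefore somewhat lower and Hk1 nearly equal. The other Hk2 probe set lay below the floor on both arrays, at 10.5 in knockout cells and 8.20 in wild-type cells.

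The phosphofructokinase step, which commits sugar to glycolysis, had its isozyme genes on both sides of 0. Pfkp, the platelet-type isozyme, was at 451.1 in knockout cells and 332.8 in wild-type cells, 1.36-fold higher (0.44), and its other probe set gave 340.2 in knockout cells and 243.1 in wild-type cells (0.48). Pfkl, the liver-type isozyme, was at 136.1 in knockout cells and 163.6 in wild-type cells, 1.20-fold lower (-0.27). The muscle isozyme gene Pfkm was close to the floor, at 40.8 in knockout cells and 31.5 in wild-type cells, at least 1.12-fold higher. Pfkfb3 encodes the enzyme that makes fructose 2,6-bisphosphate, the allosteric activator of phosphofructokinase. It was at 55.4 in knockout cells and 80.5 in wild-type cells, 1.45-fold lower (-0.54). That was the lowest ratio among members measured on both arrays. Pfkfb3's other probe set was below the floor at 16.8 in knockout cells and 11.1 in wild-type cells. With the mean over probe sets, where such a set counts as 0, Pfkfb3 was at -0.27 and Aldoa was lower (-0.38). That -0.27 is therefore not a second measurement of Pfkfb3.

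Aldolase cleaves the 6-carbon sugar, and triosephosphate isomerase interconverts the products. Aldoa was at 134.9 in knockout cells and 165.4 in wild-type cells (-0.29), and its second probe set was lower as well, at 59.9 in knockout cells and 82.3 in wild-type cells (-0.46). The brain-type gene Aldoc had 4.00 in knockout cells and 36.9 in wild-type cells. Since the wild-type signal barely cleared the floor, the difference is bounded only as at least 1.01-fold lower. Tpi1 was at 1201 in knockout cells and 1011 in wild-type cells, 1.19-fold higher (0.25).

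In the later steps of glycolysis, which yield ATP and pyruvate, all measured genes lay within 1.35-fold. Gapdh, the oxidising step, was measured by control probe sets placed along the transcript. Its 3′ set, used here as the gene's value, read 5329 in knockout cells and 4424 in wild-type cells (0.27). The middle set read 3563 in knockout cells and 2866 in wild-type cells (0.31), and the 5′ set read 3291 in knockout cells and 2450 in wild-type cells (0.43). All were higher in the knockout, and the 3′ to 5′ ratio, a sign of RNA integrity and of 3′-primed amplification, was 1.62 in knockout cells and 1.81 in wild-type cells. A Gapdh probe set shared with 2 other symbols was also higher, at 2015 in knockout cells and 1819 in wild-type cells (0.15).

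Pgk1, encoding the first ATP-yielding enzyme, was at 1056 in knockout cells and 1135 in wild-type cells (-0.10). Pgam1, for phosphoglycerate mutase, was at 79.6 in knockout cells and 59.0 in wild-type cells, 1.35-fold higher (0.43), from dim signals. Pkm, the pyruvate kinase gene of macrophages, was at 2098 in knockout cells and 2137 in wild-type cells (-0.03). Its probe set carries a suffix for shared probes, so splice forms and close copies are not told apart. Thus Pgk1 and Pkm were nearly equal, and Pgam1 had the widest ratio of these steps.

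Lactate dehydrogenase turns pyruvate into lactate. Ldha, the muscle-type subunit and a HIF-1 target, was at 3864 in knockout cells and 3641 in wild-type cells (0.09). The heart-type subunit gene Ldhb was at 32.0 in knockout cells and 53.4 in wild-type cells, at least 1.47-fold lower, with the knockout signal below the floor. Hif1a itself was at 6227 in knockout cells and 6893 in wild-type cells (-0.15), and its second probe set at 6039 in knockout cells and 6803 in wild-type cells (-0.17). Both Hif1a sets carry the suffix for probes matching a family of sequences, and Hif1a had no value when suffixed probe sets were left out. Over the 15 glycolysis members, all of them eligible, the median log2 ratio was -0.02, with 7 above and 8 below 0. None of the 12 measured on both arrays was 1.5-fold apart, although Pfkfb3 was with equal array medians or quantile normalization. Of all 4401 genes measured on both arrays, 3964 were under 1.5-fold as well. The other 3, Pfkm, Aldoc and Ldhb, have only lower bounds, and Aldoc and Ldhb were 1.5-fold or more lower with no floor.

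**Figure D2:**
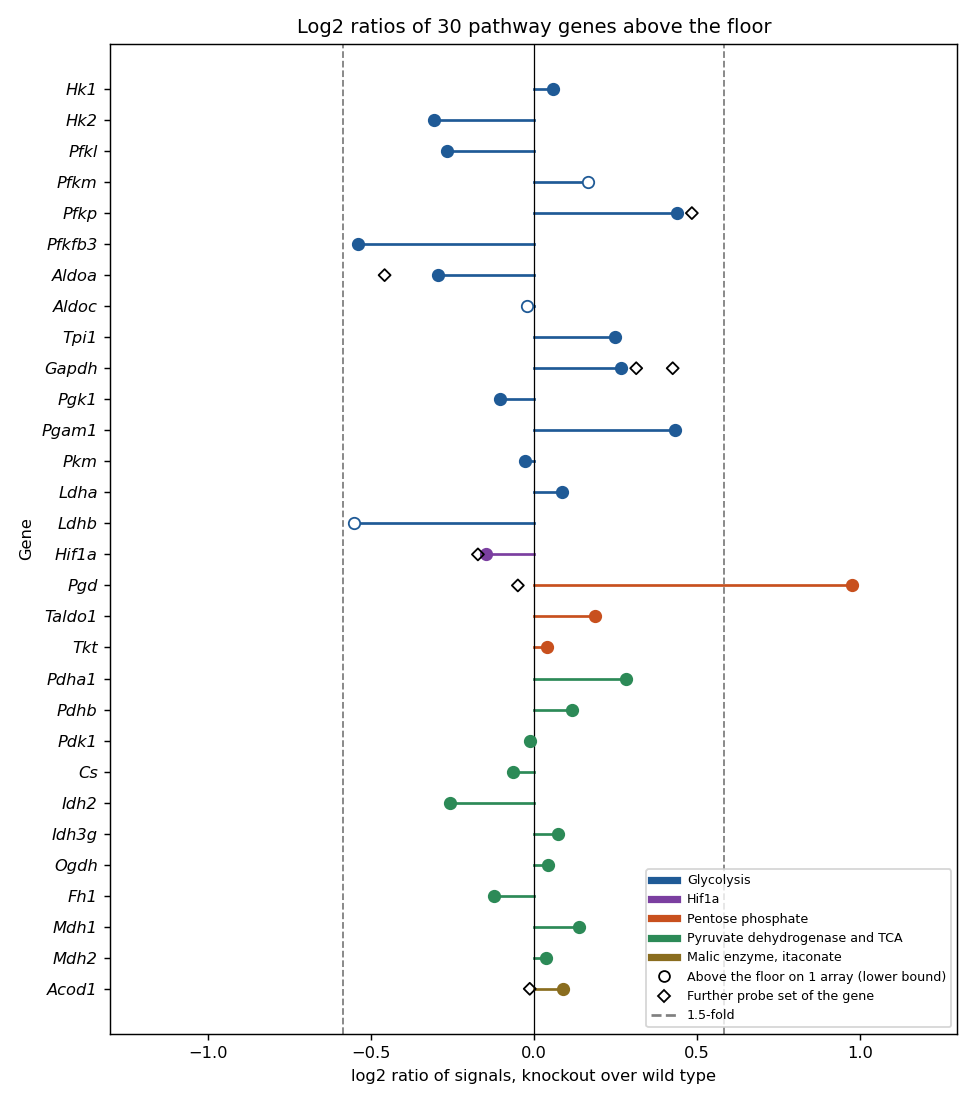
Log2 ratios (knockout over wild type) of the 30 members above the floor on at least 1 array, coloured by pathway. Open circles are lower bounds, diamonds are further probe sets of the same gene, and dashed lines mark 1.5-fold. Only Pgd passes the line, and its further probe set lies near 0.

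The 3 pentose phosphate members were all higher in the knockout, Taldo1 and Tkt by little, and Tkt was lower (-0.08) when the arrays had equal medians. The Pgd signal was 711.7 in knockout cells and 362.0 in wild-type cells (log2 ratio 0.98), rank 70 from the highest among the 5121 eligible genes. Its mean signal falls in the range of 4 to 16 floors (145.6 to 582.4), where 3.38% of 1540 genes were 1.5-fold or more higher. A second Pgd probe set did not show the difference, at 71.9 in knockout cells and 74.4 in wild-type cells (-0.05). That set carries the suffix for probes matching a family of sequences, and its mean signal was 73.2, against 536.9 for the first. The Pgd ratios of these probe sets differed by 1.02 on the log2 scale. Across 520 genes with a pair of probe sets that both cleared the floor on each array, such differences had a median of 0.30 and a 90th percentile of 0.76. For the 4 other members with such a pair (Pfkp, Aldoa, Hif1a and Acod1) the difference lay between 0.03 and 0.16. Each of these 4 pairs includes a suffixed probe set, and both Hif1a sets are suffixed, so the sets of a pair may not be independent. With the mean over both probe sets, Pgd's log2 ratio was 0.46 and no member was 1.5-fold higher.

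Taldo1 and Tkt encode transaldolase and transketolase, which return pentoses to glycolysis in the non-oxidative arm. Taldo1 was at 899.5 in knockout cells and 790.1 in wild-type cells (0.19). Tkt was at 811.6 in knockout cells and 788.6 in wild-type cells (0.04). The median of the 3 pentose phosphate members was 0.19.

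Of 7 further pentose phosphate genes, 6 had a probe set and 5 were eligible. Of these 1 was 1.5-fold or more higher and 1 lower, beside 6.35% and 5.72% of all eligible genes. Pgls, for 6-phosphogluconolactonase, which acts just before 6-phosphogluconate dehydrogenase in the oxidative arm, was at 280.6 in knockout cells and 143.0 in wild-type cells, 1.96-fold higher (0.97). Pgls has a single probe set, in the range of 4 to 16 floors, where 3.38% of 1540 genes were 1.5-fold or more higher. H6pd, which encodes the hexose 6-phosphate dehydrogenase of the endoplasmic reticulum, was at 495.7 in knockout cells and 529.2 in wild-type cells (-0.09). By the probe sets used, Pgd and Pgls, consecutive steps of the oxidative arm, were both nearly 2-fold higher. However, Pgd's second probe set had a log2 ratio of -0.05, and the mean over both sets was 0.46. The first cytosolic step, G6pdx, was not analysed here.

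On the non-oxidative side, Rpia, which interconverts the pentose isomers, was at 230.5 in knockout cells and 312.0 in wild-type cells, 1.35-fold lower (-0.44). Rpe was at 40.9 in knockout cells and 46.3 in wild-type cells (-0.18). Prps1, whose enzyme draws ribose 5-phosphate into nucleotide synthesis, was at 49.0 in knockout cells and 77.5 in wild-type cells, 1.58-fold lower (-0.66), in the range under 4 floors, where 7.79% of 2761 genes were 1.5-fold or more lower. Its other probe set had the opposite direction, at 73.3 in knockout cells and 52.8 in wild-type cells (0.47). The mean signals of the 2 sets were 63.2 and 63.0, so the choice between them, and with it the direction, rested on a very small margin.

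Pyruvate dehydrogenase links glycolysis to the TCA cycle. The genes of its E1 subunits were slightly higher in the knockout, except that Pdhb was at equality when the arrays had equal medians. Pdha1 was at 308.4 in knockout cells and 253.5 in wild-type cells (0.28). Pdhb was at 447.9 in knockout cells and 412.9 in wild-type cells (0.12). Pdk1, a kinase that inactivates the complex and a HIF-1 target, was at 54.8 in knockout cells and 55.3 in wild-type cells (-0.01). The other subunit genes leaned the other way, with Dlat (E2) at 66.8 in knockout cells and 87.3 in wild-type cells (-0.39). Dld (E3) was at 443.3 in knockout cells and 501.8 in wild-type cells (-0.18). The kinase gene Pdk3 was at 294.2 in knockout cells and 245.6 in wild-type cells (0.26). None of these genes was 1.5-fold apart, as was true of 3964 of all 4401 genes measured on both arrays.

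The TCA cycle opens with citrate synthase, whose gene Cs was at 612.1 in knockout cells and 639.6 in wild-type cells (-0.06). Aco1, the cytosolic aconitase that doubles as the iron regulatory protein IRP1, was below the floor on both arrays, at 28.2 in knockout cells and 19.0 in wild-type cells. Idh1, the cytosolic NADP-dependent isocitrate dehydrogenase, was also below it, at 7.70 in knockout cells and 5.70 in wild-type cells. Neither gene has an interpretable ratio. Idh2, the mitochondrial NADP-dependent isocitrate dehydrogenase, was at 86.4 in knockout cells and 103.2 in wild-type cells (-0.26).

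The NAD-dependent isocitrate dehydrogenase of the cycle is built from the products of Idh3a, Idh3b and Idh3g. The regulatory subunit gene Idh3g, a member, was at 171.8 in knockout cells and 163.3 in wild-type cells (0.07). The catalytic subunit gene Idh3a was at 138.3 in knockout cells and 75.1 in wild-type cells, 1.84-fold higher (0.88). Idh3b lay below the floor on both arrays. Subunits of 1 enzyme thus differed in ratio, and Idh3a had the highest ratio of the 16 eligible genes among 31 further genes of pyruvate dehydrogenase, the cycle and its shuttles. Its signals were dim, in the range under 4 floors, where 9.78% of 2761 genes were 1.5-fold or more higher.

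Past isocitrate, Ogdh, the E1 subunit gene of 2-oxoglutarate dehydrogenase, was at 441.4 in knockout cells and 428.7 in wild-type cells (0.04). Its E2 partner Dlst was at 239.1 in knockout cells and 279.9 in wild-type cells (-0.23). The succinyl-CoA ligase genes Suclg1, Suclg2 and Sucla2 had ratios of -0.12, -0.29 and -0.09. Succinate dehydrogenase, also complex II of the respiratory chain, had all 4 subunit genes between -0.06 (Sdhc) and 0.28 (Sdhb). From 2-oxoglutarate to fumarate, then, every eligible gene lay within 1.25-fold.

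Fh1, for fumarase, was at 158.3 in knockout cells and 172.3 in wild-type cells (-0.12). The malate dehydrogenase genes were nearly equal, with mitochondrial Mdh2 at 2226 in knockout cells and 2168 in wild-type cells (0.04). Cytosolic Mdh1 was at 86.2 in knockout cells and 78.3 in wild-type cells (0.14). All 10 eligible members of pyruvate dehydrogenase and the TCA cycle lay within 1.25-fold, with 6 above 0, 4 below and a median of 0.04. In the further list of 31 genes, 16 were eligible and their median was -0.05. Of these 1 (Idh3a) was 1.5-fold or more higher and 0 were lower, beside 6.35% and 5.72% of all eligible genes.

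**Figure D3:**
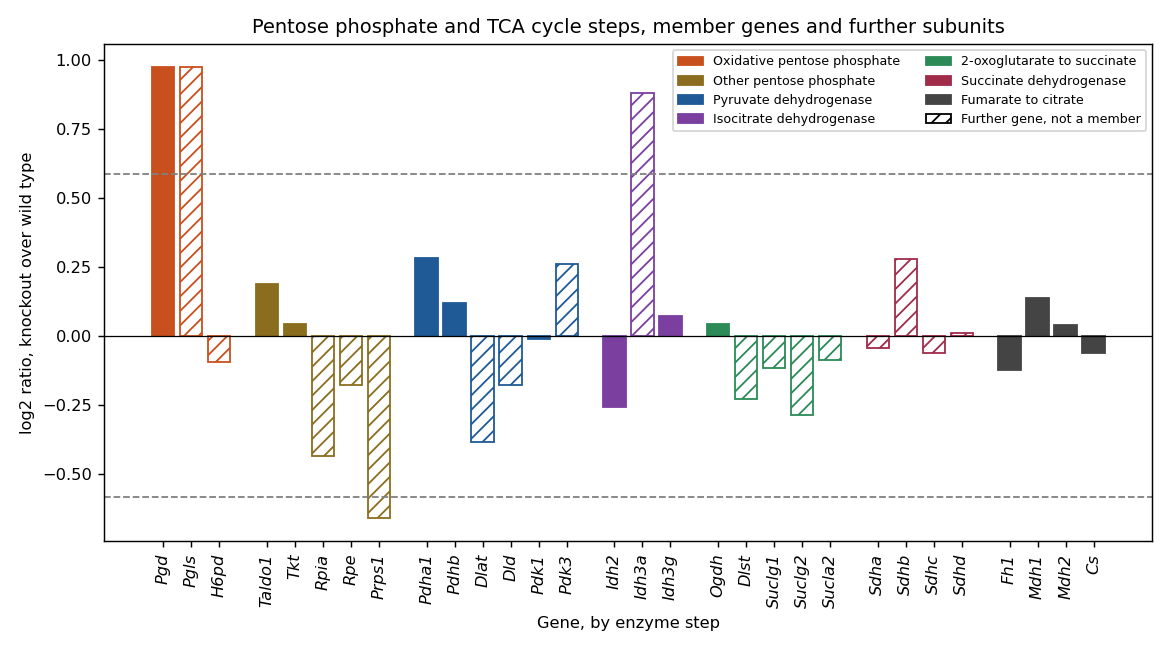
Bars give the log2 ratio (knockout over wild type) of eligible genes by enzyme step, filled for members and hatched for further genes of the same steps. Pgd (0.98), Pgls (0.97) and Idh3a (0.88) pass the upper dashed line at 1.5-fold, Prps1 (-0.66) passes the lower one, and the steps from 2-oxoglutarate to citrate lie near 0.

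ACOD1 makes itaconate, a metabolite that inhibits succinate dehydrogenase and is a hallmark of LPS-activated macrophages. Acod1 was at 9047 in knockout cells and 8498 in wild-type cells (0.09). Its second probe set was at 749.7 in knockout cells and 756.4 in wild-type cells (-0.01). Both sets therefore gave nearly equal signals in the genotypes. Me1, the cytosolic malic enzyme and an NADPH source, was below the floor on both arrays, at 5.40 in knockout cells and 29.7 in wild-type cells.

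Genes around glycolysis were mostly dim. Of 19 further glycolysis and transport genes, 13 had a probe set and 4 were eligible, 2 of them (Pklr and Bpgm) with lower bounds only. None of the 4 was shown to be 1.5-fold apart, and the median was -0.09. Over all eligible genes 6.35% were 1.5-fold or more higher and 5.72% lower. Slc2a1, the main glucose transporter of activated macrophages (GLUT1), was at 247.9 in knockout cells and 193.8 in wild-type cells, 1.28-fold higher (0.36). It had the highest ratio of that list, and Pklr, the liver-type pyruvate kinase gene, the lowest, at least 1.18-fold lower. The other 9 genes with a probe set lay below the floor on both arrays. They were Pgam2, Eno3, Pgk2, Ldhc, Fbp1 and Fbp2, genes of isozymes known from muscle, testis or liver, and Pfkfb2, Slc2a3 and Slc16a1. The last 2 are transporter genes, with Slc2a3 at 24.1 in knockout cells and 5.90 in wild-type cells. Slc16a1 was at 27.4 in knockout cells and 32.7 in wild-type cells.

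Of 15 genes of oxygen sensing and HIF targets, 12 had a probe set and 9 were eligible. None of the 9 was shown to be 1.5-fold apart, while of all eligible genes 6.35% were that much higher and 5.72% lower. Ddit4 had only a bound (at least 1.22-fold lower, 22.9 in knockout cells and 44.4 in wild-type cells). Of the 9, 5 were above and 4 below 0, and their median was 0.14. Bnip3, a mitophagy gene induced by HIF-1, had the highest ratio, at 63.1 in knockout cells and 49.5 in wild-type cells (0.35). P4ha1, a collagen prolyl hydroxylase subunit gene, had the lowest, at 211.0 in knockout cells and 267.9 in wild-type cells (-0.34). Egln2, which encodes a prolyl hydroxylase that marks HIF-1α for degradation, was at 521.6 in knockout cells and 411.9 in wild-type cells (0.34). Among the 72 further genes of all 4 lists, 54 had a probe set and 34 were eligible, with a median of -0.05. Of these 34, 2 were 1.5-fold or more higher and 1 lower, beside 6.35% and 5.72% of all eligible genes.

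The spread of ratios depended on the signal. Members with a mean signal of 16 floors or more numbered 12, and their median absolute log2 ratio was 0.10, beside 0.14 over the 820 eligible genes of that range. Hk2, at 0.31 in absolute value, was the farthest from 0 of these 12, and the 90th percentile of the range was 0.36. In the middle range the 10 members had a median absolute ratio of 0.19, beside 0.18 for all. In the low range the 8 members had 0.21, beside 0.28, with the lower bounds included. Among the members measured on both arrays, Pgd alone lay beyond the 90th percentile of its range, which was 0.51.

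**Figure D4:**
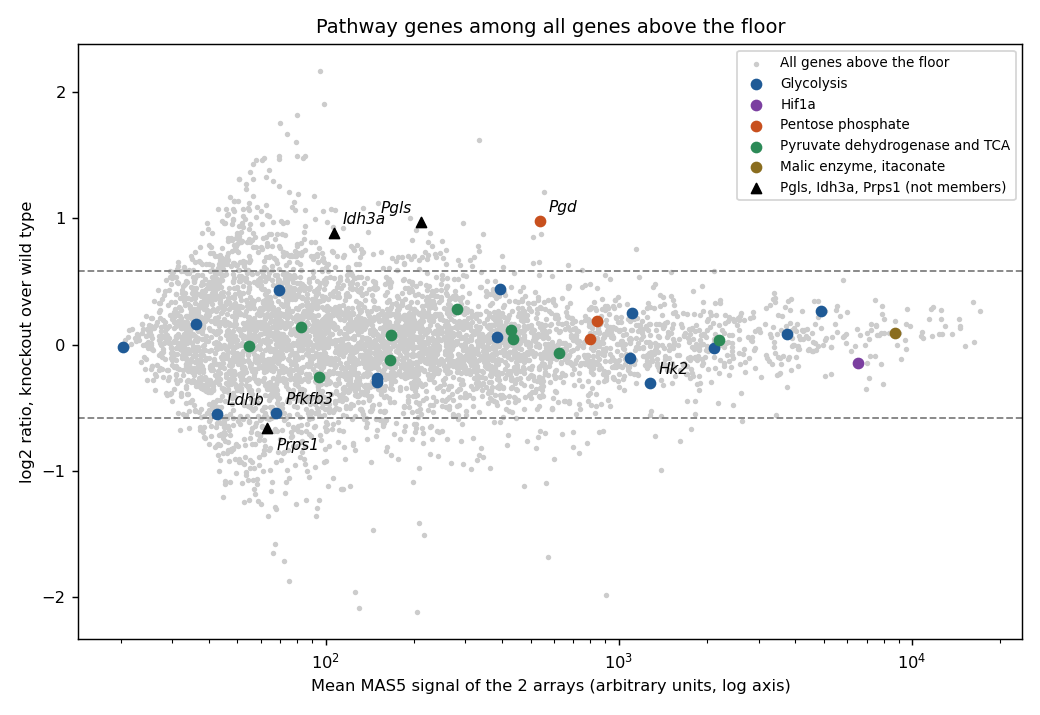
Log2 ratio (knockout over wild type) against mean signal (log axis) for the 5121 eligible genes in grey, with the members in colour and 3 further pathway genes as triangles. Grey points fan out at low signal, most members lie in the central band, and Pgd and Pgls lie above the dashed 1.5-fold line.

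As a check of the labels, Dusp2 was at 76.8 in knockout cells and 333.0 in wild-type cells, and the sources used here do not state where its probes lie relative to the deletion. All 8 macrophage markers were above the floor on both arrays, and all 8 were higher in the knockout (7 of 8, without Adgre1, when the arrays had equal medians), by 0.06 to 0.36 on the log2 scale (median 0.24, summed signal 24716 in knockout cells and 20880 in wild-type cells). Of the neutrophil markers 5 of 8 were eligible, and of the B cell markers all 4 on the array. Summed signals here include every marker of a list on the array, also those below the floor, and are led by the brightest probe sets. For neutrophil markers the sum was 886.5 in knockout cells and 956.2 in wild-type cells. For B cell markers it was 358.1 in knockout cells and 429.9 in wild-type cells. Ighm was lower, at 122.9 in knockout cells and 229.9 in wild-type cells, by the brightest of its 16 probe sets, a suffixed one. Ms4a1, at 52.2 in knockout cells and 87.4 in wild-type cells, was lower too. So was Cd79b, at 82.8 in knockout cells and 91.9 in wild-type cells. Of the B cell markers Cd79a alone was higher, at 100.2 in knockout cells and 20.7 in wild-type cells, at least 2.75-fold. Stromal markers had 6 of 7 eligible and a summed signal of 1089 in knockout cells and 1250 in wild-type cells. They went both ways, with Acta2 (-1.35), Col1a1 (-0.46), Col3a1 (-0.30) and Upk3b (-0.23) lower and Dcn (0.37) and Col1a2 (0.09) higher. Mast cell markers had 2 of 5, with 270.1 in knockout cells and 150.8 in wild-type cells, and eosinophil markers 1 of 3, with 126.3 in knockout cells and 20.7 in wild-type cells. Of 5 T and NK cell markers 1 was eligible, Cd4, at 32.8 in knockout cells and 74.5 in wild-type cells, at least 2.05-fold lower. The sum over all 5 was 86.7 in knockout cells and 115.7 in wild-type cells. Of the neutrophil markers, S100a8 was at 367.3 in knockout cells and 385.8 in wild-type cells, and Csf3r at 315.4 in knockout cells and 408.0 in wild-type cells. Camp was higher, at 85.7 in knockout cells and 61.9 in wild-type cells. Below the floor on both arrays were Ly6g, Mpo, Ltf, Epx, Ccr3, Cpa3, Mcpt4, Fcer1a, Cd3e, Cd3g, Cd8a, Ncr1 and Msln. The part of these marker differences in the Pgd, Pgls or Idh3a values was not tested, and in such bulk RNA a change in the number of cells of a type cannot be told apart from a change in RNA per cell.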

How the data were processed

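RNA of Pac1 knockout and wild-type macrophages was measured on 1 array each. The deposited file gives a linear-scale intensity for each probe set, computed by the authors with MAS5, per the submitters' processing notes, which give no version or settings. Of 12654 probe sets, 10298 had 1 gene symbol in the platform annotation, 363 several and 1993 none, and 10279 of the first had an Entrez identifier in RefSeq. Arrays were scaled to equal 2% trimmed means (factors of 1.00 and 1.00), signals below the floor were raised to it, and log2 ratios were taken. A gene's value came from its probe set with the highest mean signal. Probe sets with several symbols, and control sets with the suffix st, were left out.

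No test was possible with 1 array per genotype, whose number limits the precision. The knockout array had a median signal of 38.0 and the wild-type array one of 35.0. The members and gene lists were chosen with earlier results of these data known. The text names all members, Dusp2, and from each further list the genes 1.5-fold apart, or its highest and lowest, and some others of the same enzymes, chosen after their values were seen. Alternatives covered scaling, floor and probe set choice. Scripts ran in Python 3.11.15 and were tested on simulated data.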

Additional observations from a re-analysis of the deposited data

How the results depend on the processing

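No paired analysis was possible because each genotype had 1 array. The members' values were recomputed in 8 other ways and in 1 more chosen after seeing the data, the omission of control probe sets, which leaves Gapdh without a value. The ratios of the further genes, Pgls, Idh3a and Prps1 among them, were not examined in these other settings. Scaling the arrays to the same median moved the eligible genes as a whole by -0.11 (their median log2 ratio became -0.10) and the members' median to -0.08, and the number of members 1.5-fold or more lower became 2 of 30 (Pfkfb3 and Ldhb) in place of 0, beside 8.89% of all eligible genes. Quantile normalization gave 1 lower member (Pfkfb3), beside 6.23% of all eligible genes, and put 1 member, Pgd, at 2-fold or more (log2 ratio 1.01). Lowering the floor to the 25th percentile gave 3 lower members of 32 (Aldoc, Ldhb and Me1), beside 11.4% of all eligible genes, and 2 that were 2-fold apart. No floor gave 2 lower of 30 (Aldoc and Ldhb), beside 8.24%, and 1 that was 2-fold apart, since signals under the main floor then entered the ratios. The 2-fold share over all eligible genes was not computed for quantile normalization, the lower floor or no floor. The 2-fold counts of members in these settings therefore have no background and cannot be read as a result. Averaging over probe sets left 0 members 1.5-fold or more higher, with Pgd at 0.46. Pfkfb3 was then at -0.27, because its second set, below the floor on both arrays, counts as 0 in the mean. In the other settings Pgd was the 1 member 1.5-fold higher. Of the 30 members, 22 kept the sign of their ratio in every setting that gave them a value, and 8 did not (Acod1, Hk1, Idh3g, Ldha, Mdh2, Ogdh, Pdhb and Tkt), each of them within 0.15 of 0 throughout. The glycolysis median ranged from -0.08 to 0.02, the pentose phosphate median from 0.07 to 0.23 and the median of pyruvate dehydrogenase and the TCA cycle from -0.08 to 0.04. Signals near the floor limit what can be said of Aldoc, Ldhb, Pfkm, Aco1, Idh1 and Me1.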
